A study of Homo sapiens with 4 samples.

Results

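The 9 genes MAT2A, AHCY, MTR, MTRR, CBS, CTH, ODC1, AMD1 and SRM encode enzymes of the methionine cycle, of transsulfuration and of polyamine synthesis. They were taken by symbol from a table of RNA read counts with 26364 rows, and all 9 had a row. A gene was tested if it had at least 10 counts in at least 2 of the 4 libraries. This left 14024 genes, among them all 9 enzymes, although CBS passed only through the SW620 libraries.

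Both cell lines, SW480 and SW620, were derived from human colorectal cancer. Each line gave 1 control library and 1 library with SHMT2 knocked down, so every combination of line and treatment was measured once. The knockdown cells carried a doxycycline-inducible short hairpin RNA (shRNA) against SHMT2, the mitochondrial serine hydroxymethyltransferase, and the controls were control shRNA cells according to the study and "control" in the labels. Whether the controls received doxycycline, which hairpin was sequenced and whether the cultures were independent are not given in the sources used here. The study addressed what SHMT2 depletion does to gene expression in these cells.

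In the methionine cycle, MAT2A makes S-adenosylmethionine (SAM), the main methyl donor of the cell, and AHCY clears S-adenosylhomocysteine, which is left after the methyl group has been passed on. Homocysteine is then methylated back to methionine by MTR with a methyl group from the folate cycle, to which serine contributes carbon through SHMT enzymes, or it is joined to serine by CBS and leaves the cycle toward cysteine. Decarboxylated SAM, the product of AMD1, supplies the aminopropyl groups with which putrescine, the product of ODC1, becomes spermidine.

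Library totals ran from 5530129 to 13774288 counts, and the 9 genes held 0.170% to 0.234% of the counts of a library. Values below are CPM, a gene's reads as a share of all reads of its library, after scaling by the trimmed mean of M values (TMM). SHMT2 was at 277 CPM in the SW480 control library and 30.9 CPM in the SW480 knockdown library, and at 688 and 47.6 CPM in the SW620 control and knockdown libraries. Thus both knockdown libraries were far below both controls, and SHMT2 fell by 3.54 on the log2 scale across the lines (SE 0.12, adjusted p = 1.06e-167, edgeR quasi-likelihood test). Among 12 markers of colorectal epithelium, 6 were at 1 CPM or more in every library, among them EPCAM, CDH1 and KRT8, while CDX1 had 0 counts in every library. The markers did not move together between the lines. VIL1, LGR5 and ASCL2 were at 48.4 to 380 CPM in SW620 and at or below 0.208 CPM in SW480, while KRT19 was at 1277 and 1142 CPM in the SW480 control and knockdown libraries and at 670.1 and 755 CPM in those of SW620, and CDX2 (18.4 and 20.8 against 9.90 and 13.4 CPM) and KRT20 (at most 1.56 CPM) were also higher in SW480. All 5 leukocyte markers, 4 of 5 fibroblast markers and 3 of 4 endothelial markers were below 1 CPM in every library.

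Promoter windows were read for all of these genes but MTRR. Those of 3 genes are printed, chosen for what the values or the window had shown. CBS separated the cell lines furthest, CTH was the one gene lower in SW620, and SRM held an E-box in its window, as no other gene did when 1 window per gene was read. The sequences are RefSeq reference sequence on GRCh38.p14, not sequence of these cells, and are printed 5′ to 3′ on the strand of the gene. CpG dinucleotides are in capitals for CBS (chr21:43075946-43076085, minus strand) and CTH (chr1:70411018-70411217, plus strand), and the E-box CACGTG is in capitals for SRM (chr1:11060025-11060268, minus strand). Each printed stretch is the piece of the window, 250 bases upstream of a RefSeq start, that overlaps no annotated exon.
CBS: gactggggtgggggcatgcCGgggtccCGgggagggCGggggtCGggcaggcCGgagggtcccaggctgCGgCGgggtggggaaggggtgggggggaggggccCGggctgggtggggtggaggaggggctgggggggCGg
CTH: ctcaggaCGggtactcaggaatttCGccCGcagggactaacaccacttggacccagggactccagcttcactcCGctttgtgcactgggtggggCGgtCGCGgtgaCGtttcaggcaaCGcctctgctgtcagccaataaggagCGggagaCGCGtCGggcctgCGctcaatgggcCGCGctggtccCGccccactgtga
SRM: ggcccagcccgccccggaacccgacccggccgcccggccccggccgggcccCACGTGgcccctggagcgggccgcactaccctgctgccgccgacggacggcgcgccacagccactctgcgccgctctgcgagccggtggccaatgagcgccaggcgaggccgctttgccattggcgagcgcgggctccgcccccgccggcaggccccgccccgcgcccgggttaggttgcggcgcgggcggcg

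The 250-base window of CBS held 24 CpG dinucleotides, of which 9 lie in the stretch above, and that of CTH held 20, of which 17 are shown. Over the 8 genes with a window (all but MTRR) the number ran from 17 in MTR to 40 in SRM, against a median of 11 over 35116 RefSeq windows of the same length. CACGTG, which reads the same on both strands, was in 1 of the 8 windows and in 6.34% of all windows. ODC1 has 2 RefSeq windows, of which the one not used here also holds CACGTG. The letters TGATGNAA, the core of an amino acid response element, were searched on both strands and found in 0 of the 8 windows and in 3.14% of all windows. A match is a description of the letters in this window only.

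Levels between genes were compared per kilobase of the principal GENCODE 29 transcript, in CPM per kb. AHCY was highest in every library, from 221 to 320 CPM per kb, followed by ODC1 at 169 to 226. SRM (128 to 177) and MAT2A (119 to 157) were next and exchanged places in the SW620 control library, so their order was not settled by these libraries. AMD1 (31.8 to 58.8) and MTRR (12.3 to 28.0) held the next places in every library. MTR (6.30 to 7.42) and CTH (2.84 to 6.75) were low and close to each other in SW480. CBS had no steady place: it was last in both SW480 libraries, at 0.0400 and 0.0579 CPM per kb, and seventh of the 9 in both SW620 libraries, at 18.9 and 25.4. The cycle enzyme that clears S-adenosylhomocysteine and the enzyme that commits ornithine to polyamines were thus the most abundant messages. The transsulfuration genes, together with MTR, held the lowest places in both lines.

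**Figure D1:**
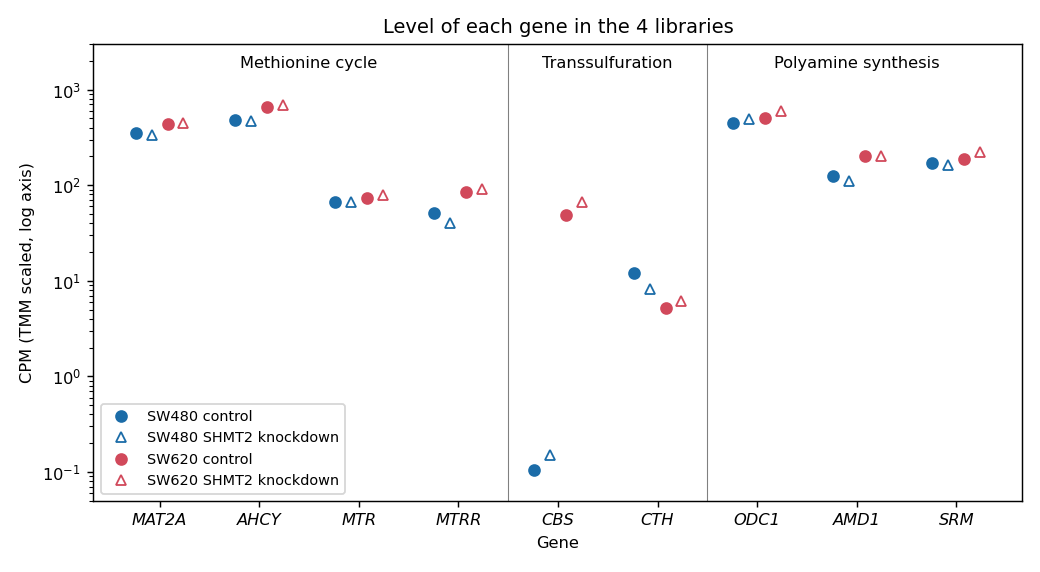
CPM (TMM scaled, log axis) of each of the 9 genes in the 4 libraries, 1 point per library, with circles for control and triangles for SHMT2 knockdown libraries of SW480 (blue) and SW620 (red). CBS lies at 0.104 and 0.151 CPM in SW480 and at 49.3 and 66.1 CPM in SW620, while knockdown and control points of the other genes lie close together within a line.

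Within a cell line, the knockdown-to-control ratios of these enzymes ran from 0.669 for CTH in SW480 to 1.34 for CBS in SW620, leaving out CBS in SW480 with 1 count in each library. None of the 9 genes passed the test in the knockdown: 0 lower and 0 higher genes had an adjusted p under 0.05 (edgeR quasi-likelihood test with terms for cell line and treatment), against 1.17% and 0.492% of the 14024 genes tested. Before adjustment, at p of 0.05 or less, 0 were lower, against 4.91% of all genes, and 1 was higher, CBS, against 4.15%. With the DESeq2 Wald test 0 genes passed in either direction, adjusted or unadjusted, but CBS and CTH were given no adjusted p there. Their median log2 fold change was 0.03 (-0.06 within SW480 and 0.11 within SW620), beside 0.01 over all genes tested. There was 1 residual degree of freedom, and the edgeR fit gave a gene's own spread no weight (prior degrees of freedom infinite). Its p-values, SEs and intervals therefore rest on the dispersion shared across genes. They do not measure how far the 2 cell lines disagreed for a single gene. Ratios within a line have no test and an exact 95% interval for counting error only.

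For the methionine cycle, MAT2A, which makes SAM, was at 349 CPM in the SW480 control and 334 CPM in the SW480 knockdown library. In SW620 the corresponding levels were 441 and 442 CPM. The knockdown libraries were thus within a few percent of their own controls, with a log2 fold change of -0.03 (95% interval -0.23 to 0.17, adjusted p = 0.987, edgeR). AHCY, which hydrolyses S-adenosylhomocysteine, was at 479 CPM in the SW480 control library, 473 in the SW480 knockdown, 651 in the SW620 control and 685 in the SW620 knockdown. Its log2 fold change was 0.03 (95% interval -0.16 to 0.22, adjusted p = 0.986, edgeR), and the direction differed between the lines. Levels of MTR, methionine synthase, were 66.3 and 67.1 CPM in the SW480 control and knockdown libraries and 73.2 and 78.1 CPM in those of SW620. The MTR ratio was 1.01 (exact 95% interval 0.895 to 1.14) in SW480 and 1.07 (0.951 to 1.20) in SW620, so both intervals spanned 1. Its log2 fold change was 0.06 (95% interval -0.20 to 0.31, adjusted p = 0.980, edgeR).

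MTRR, the reductase that restores the cobalamin cofactor of MTR, differed more between the lines. It was at 51.5 CPM in the SW480 control and 40.3 CPM in the SW480 knockdown library, a ratio of 0.781 (exact 95% interval 0.671 to 0.909). In SW620 it was at 85.3 CPM in the control and 91.8 CPM in the knockdown library, a ratio of 1.08 (0.967 to 1.20). Counting error alone therefore covers the SW620 difference and not the SW480 difference, and the shared log2 fold change was -0.11 (95% interval -0.37 to 0.15, adjusted p = 0.955, edgeR). The SW620 effect exceeded the SW480 effect by 0.46 on the log2 scale. Over the 8216 tested genes with a mean of 20 CPM or more, the absolute difference between the 2 lines had a median of 0.18 and a 90th percentile of 0.48, so that of MTRR lay just below the latter. The difference between the lines could not be tested, since a model with that term has no residual degree of freedom.

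In transsulfuration, CBS had 269 counts in the SW620 control library (49.3 CPM) and 889 in the SW620 knockdown library (66.1 CPM). The SW620 ratio was 1.34 (exact 95% interval 1.17 to 1.54). SW480 had 1 count of CBS in each library, so its ratio of 1.45 (0.0185 to 114) was uninformative, and the value rests on SW620 alone. Across the libraries the log2 fold change was 0.42 (SE 0.21, unadjusted p = 0.0401, adjusted p = 0.508, edgeR), which did not pass. CTH, which releases cysteine from cystathionine, had 117 and 54 counts in the SW480 control and knockdown libraries (12.2 and 8.14 CPM) and 28 and 82 counts in those of SW620 (5.13 and 6.10 CPM). CTH was lower after knockdown in SW480 (ratio 0.669, exact 95% interval 0.475 to 0.931) and its SW620 interval spanned 1 (ratio 1.19, 0.765 to 1.89). The shared log2 fold change of CTH was -0.22 with a wide interval (-0.78 to 0.33, adjusted p = 0.957, edgeR), so its direction was not settled by these libraries.

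Among the polyamine genes, ODC1, which makes putrescine from ornithine, was at 449 CPM in the SW480 control library and 488 in the SW480 knockdown, and at 502 and 601 CPM in the SW620 control and knockdown libraries. It was higher after knockdown in both lines, with ratios of 1.09 (exact 95% interval 1.04 to 1.14) in SW480 and 1.20 (1.15 to 1.25) in SW620, both beyond counting error. The log2 fold change of 0.19 (SE 0.10) did not pass the test (unadjusted p = 0.0579, adjusted p = 0.583, edgeR). Levels of AMD1, which decarboxylates SAM, were 125 and 109 CPM in the SW480 control and knockdown libraries and 202.2 and 201.9 CPM in those of SW620. The SW480 ratio was 0.872 (0.794 to 0.957) and the SW620 ratio 0.998 (0.931 to 1.07), with a shared log2 fold change of -0.10 (95% interval -0.33 to 0.13, adjusted p = 0.953, edgeR). SRM, spermidine synthase, was at 170.2 and 163 CPM in the SW480 control and knockdown libraries and at 186 and 224 CPM in those of SW620. SRM was higher in the SW620 knockdown library (ratio 1.20, 1.12 to 1.29) and its SW480 interval spanned 1 (ratio 0.955, 0.884 to 1.03). The shared log2 fold change of SRM was 0.10 (95% interval -0.12 to 0.33, adjusted p = 0.947, edgeR).

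Taking direction alone, 1 of the 9 genes, AMD1, was lower in the knockdown in both lines, against 24.7% of the genes tested. MTR, ODC1 and, by its scaled value, CBS were higher in both lines, 3 of the 9, against 27% of the genes tested. CBS had 1 count in each SW480 library, so its direction in SW480 is set by the scaling and is not known. The other 5 (MAT2A, AHCY, MTRR, CTH and SRM) were lower in SW480 and higher in SW620. By unadjusted p, CBS held place 1108 and ODC1 place 1391 of 14024 genes, and the remaining 7 lay from place 5624 to place 11077.

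**Figure D2:**
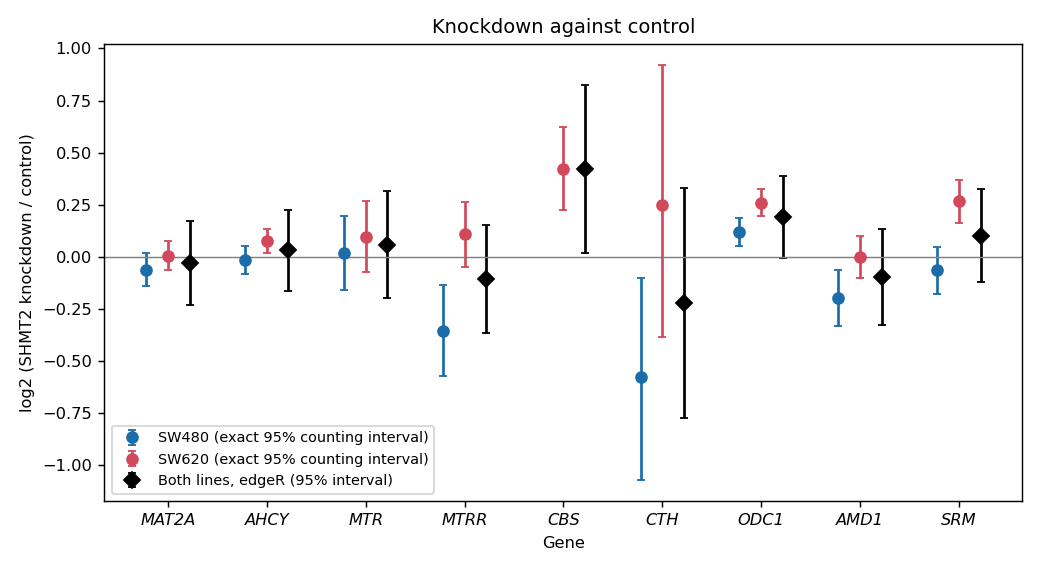
Log2 ratio of knockdown to control for each gene within SW480 (blue) and SW620 (red), with exact 95% intervals for counting error, and for both lines from edgeR (black diamonds, 95% interval). CBS has no SW480 point because each SW480 library held 1 count, and among the edgeR intervals only that of CBS leaves out 0.

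The cell lines differed in most of these genes. CBS was tested only because its SW620 counts were high, so it had to differ between the lines, and its difference is described below without a test. Of the 8 genes that reached 10 counts in both lines, 6 were higher in SW620 than in SW480 at an adjusted p under 0.05 (edgeR), and 1 was lower, CTH. Among the 12435 tested genes that reached 10 counts in both lines 31.3% were higher and 28.2% lower in SW620, and among all 14024 tested genes 32.3% were higher and 31.3% lower. This restriction was added after the values had been seen. Calls were frequent among all genes here, and the median log2 difference was 0.34 for the 8 genes and 0.02 for the 12435. The calls of MAT2A, AHCY, MTRR and AMD1 were made in every one of the 9 fits run, which differed in scaling, filter, depth, tool or model. ODC1 passed in 1 of the 9 fits, SRM in 3 and CTH in 7, so these 3 calls depended on the settings. A difference between the lines and a difference between the cultures sampled cannot be told apart here. The summed level of the 12 epithelial markers also moved with the line, from 5400 to 7013 CPM in SW480 and from 9618 to 10620 CPM in SW620, and its part in these differences was not tested. This sum is carried by KRT8 and KRT18 (5235 and 3642 CPM in the SW620 control library), and KRT19, CDX2 and KRT20 were lower in SW620.

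CBS differed most. Its 1 and 1 counts in the SW480 control and knockdown libraries stood against 269 and 889 counts in SW620. The ratio of SW620 to SW480 was 474 between the controls (exact 95% interval 84.3 to 18780) and 438 between the knockdown libraries (78.4 to 17325). The 2 groups of libraries were thus fully apart with either treatment, although the ratio itself is known only within wide bounds because its divisor is 1 count. By absolute log2 difference CBS held place 230 of 14024 genes. Of these genes 1589 (11.3%) passed the count filter through 1 line only, as CBS did, so this place is a description only. In GRCh38 CBS has a near-identical copy on the same chromosome named CBSL, the count table held 0 rows of that name, and reads of the copies cannot be told apart here.

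MTRR was 1.94-fold higher in SW620 (log2 0.96, SE 0.13, adjusted p = 5.05e-12, edgeR), with ratios of 1.65 between the controls and 2.28 between the knockdown libraries. AMD1 was 1.73-fold higher (log2 0.79, SE 0.12, adjusted p = 1.09e-10, edgeR), with ratios of 1.61 and 1.85. AHCY was 1.40-fold and MAT2A 1.29-fold higher (adjusted p = 2.43e-06 and 6.95e-04, edgeR). SRM and ODC1 were 1.23-fold and 1.17-fold higher (adjusted p = 0.0162 and 0.0342, edgeR). For each of these genes and for MTR both SW620 libraries lay above both SW480 libraries, and for CTH both lay below. The share of all genes separated in this way was not counted, so this is a description only. Between the SRM controls the ratio was 1.10 (exact 95% interval 1.01 to 1.19), and between the knockdown libraries it was 1.38 (1.29 to 1.48). MTR was 1.13-fold higher in SW620, which did not pass (95% interval of the log2 difference -0.08 to 0.44, adjusted p = 0.221, edgeR).

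CTH was the only one of the 9 genes with a lower level in SW620, at 0.576 of the SW480 level (log2 -0.80, SE 0.28, adjusted p = 0.00896, edgeR). The call was lost with the DESeq2 Wald test (adjusted p = 0.264) and with edgeR after every library had been thinned to the smallest total (adjusted p = 0.0591). Between the controls the ratio was 0.421 (exact 95% interval 0.269 to 0.641), and between the knockdown libraries it was 0.748 (0.524 to 1.08), an interval that spanned 1. The 2 transsulfuration enzymes therefore differed between the lines in opposite directions, CBS being almost undetected in SW480 and CTH being lower in SW620.

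**Figure D3:**
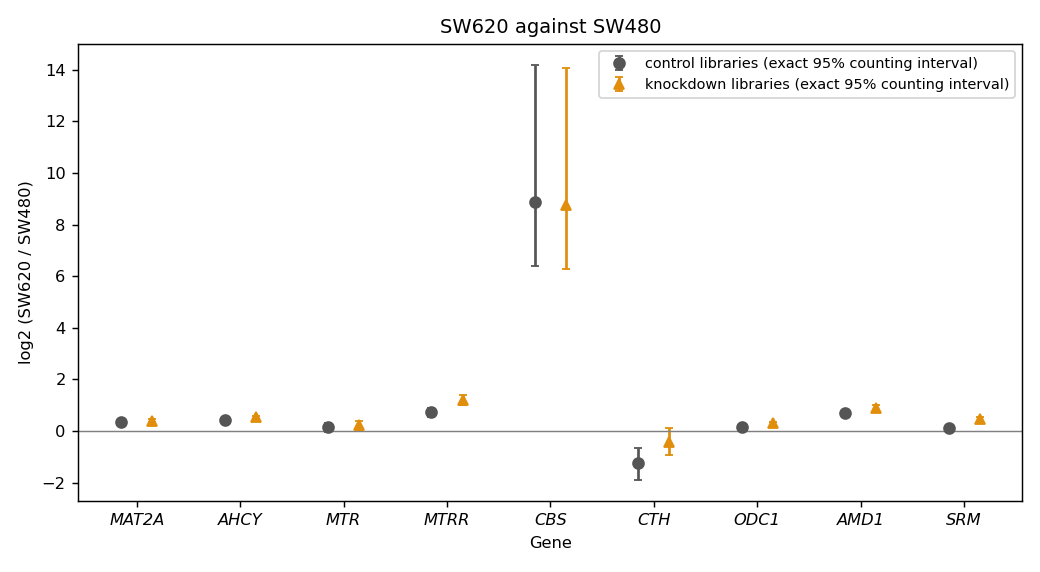
Log2 ratio of SW620 to SW480 for each gene, between the control libraries (grey circles) and between the knockdown libraries (orange triangles), with exact 95% intervals for counting error. CBS stands at 8.89 and 8.78, CTH alone lies below 0 at -1.25 and -0.42, and the other 7 genes lie between 0.13 and 1.19.

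No gene of the 9 passed in the knockdown, so CBS, with the smallest unadjusted p, was compared with the other genes for likeness of pattern. The measure was the root mean square difference of log2(CPM + 0.5), centred over the 4 libraries. The 3 nearest were TMPRSS2 (0.155), a membrane serine protease, CLDN1 (0.163), a tight junction protein, and IGF2BP1 (0.169), an RNA-binding protein. TMPRSS2 had 0 and 1 counts in the SW480 control and knockdown libraries and 258 and 681 counts in those of SW620. For CLDN1 the counts were 2, 1, 365 and 1128 in the same order, and for IGF2BP1 they were 15, 11, 1194 and 3595. All 3 were near absence or low in SW480 and abundant in SW620, as CBS was. They were picked for this likeness, so the shared pattern follows from the choice. CBS, TMPRSS2 and CLDN1 also passed the count filter through SW620 only. The likeness covers 4 libraries only.

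Neighbouring steps of metabolism were examined in 5 further gene lists with 62 genes, of which 55 were tested. In the knockdown, 0 lower and 0 higher genes of the 55 had an adjusted p under 0.05 (edgeR), and 3 lower and 3 higher genes had an unadjusted p up to 0.05, which is 5.45% in each direction beside 4.91% lower and 4.15% higher over all genes tested. These shares are near the background, and so the unadjusted counts of the single lists below are a description only. Over the 55 genes the median log2 fold change was -0.05. The lowest adjusted p was that of SLC7A11, the cystine transporter that supplies cysteine from outside the cell. It had 688 and 539 counts in the SW480 control and knockdown libraries (71.6 and 81.3 CPM) and 221 and 892 in those of SW620 (40.5 and 66.3 CPM). SLC7A11 was higher after knockdown in both lines, by 0.18 and 0.71 on the log2 scale, and the shared log2 fold change of 0.43 (SE 0.13) did not pass (unadjusted p = 0.00125, adjusted p = 0.0658, edgeR).

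In the list of other methionine cycle genes, 10 of 12 were tested, and 0 lower and 1 higher had an unadjusted p of 0.05 or less. The higher one was SLC43A2, a transporter of methionine and other large neutral amino acids, with a log2 fold change of 0.41 (unadjusted p = 0.0169, adjusted p = 0.328, edgeR). MMADHC, which handles cobalamin for MTR, had a log2 fold change of -0.18 (adjusted p = 0.796, edgeR). All 6 methionine salvage genes were tested, and 0 passed even unadjusted. The smallest p-values were those of ENOPH1 and GOT1, at log2 fold changes of -0.18 and -0.09. Of the other transsulfuration, cysteine and sulfide genes, 10 of 12 were tested, and only SLC7A11 passed unadjusted, in the upward direction. SUOX, sulfite oxidase, was next with a log2 fold change of 0.27 (adjusted p = 0.644, edgeR).

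Other polyamine genes numbered 18 tested of 19, and an unadjusted p up to 0.05 was found for 2 lower and 1 higher gene. SAT1, the acetyltransferase that starts polyamine breakdown, was at 197 and 349 CPM in the SW480 control and knockdown libraries and at 303 and 235 CPM in those of SW620. It was higher after knockdown in SW480 (log2 0.83, exact 95% interval 0.74 to 0.92) and lower in SW620 (-0.37, -0.46 to -0.28), so the shared value of 0.23 (unadjusted p = 0.0388, adjusted p = 0.502, edgeR) averages opposite directions. SMS, spermine synthase, was at 181 and 136 CPM in SW480 and at 243 and 234 CPM in SW620, with a log2 fold change of -0.23 (adjusted p = 0.531, edgeR). The other gene below the unadjusted limit was EIF5A2, an isoform of the translation factor modified from spermidine, at -0.46 (adjusted p = 0.540, edgeR). EIF5A2 is named beyond the 2 smallest p-values, after its value was seen.

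Of 13 SAM-using methyltransferases 11 were tested, and 1 lower and 0 higher had an unadjusted p up to 0.05. The lower one was HNMT, histamine N-methyltransferase, which had 2 and 0 counts in the SW480 control and knockdown libraries and 17 and 16 in those of SW620. These counts are too few to weigh (log2 fold change -1.46, adjusted p = 0.502, edgeR). CARM1, an arginine methyltransferase, was at -0.17 (adjusted p = 0.766, edgeR).

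**Figure D4:**
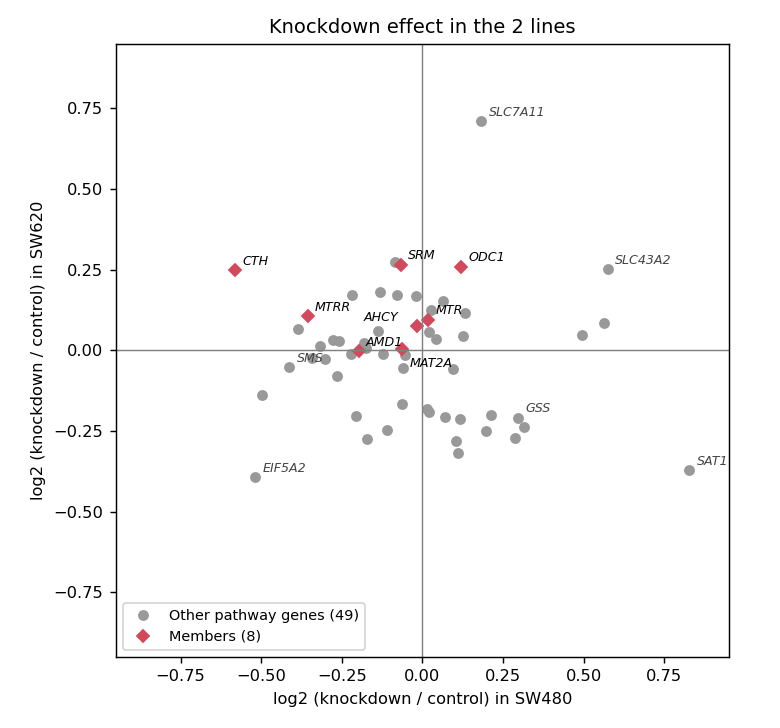
Log2 ratio of knockdown to control in SW480 (horizontal) and in SW620 (vertical) for the 8 of the 9 genes (red diamonds) and the 49 other pathway genes (grey circles) with 10 or more counts in every library. The red points lie between -0.58 and 0.12 in SW480 and between 0.00 and 0.27 in SW620, while SAT1 lies at 0.83 and -0.37 and SLC7A11 at 0.18 and 0.71.

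Between the cell lines 12 of the 55 tested list genes were lower and 21 were higher in SW620 at an adjusted p under 0.05 (edgeR), beside the 31.3% and 32.3% of all genes given above. MAT1A, PAOX, AGMAT and HNMT entered the test through 1 line only, the one in which they were high, and without them 10 of 51 were lower and 19 higher. In the methionine cycle list 2 were lower and 2 higher. MAT1A, the liver form of the SAM synthetase, had 32 and 33 counts in the SW480 control and knockdown libraries and 0 and 5 in those of SW620. AHCYL2, an AHCY-like protein, was lower in SW620 (-0.54), and METTL16, the methyltransferase that acts on MAT2A RNA, was higher (0.53). In methionine salvage 2 were lower and 4 higher. MRI1, an isomerase of the salvage pathway, was at 20.8 and 21.4 CPM in SW480 and at 72.4 and 74.2 CPM in SW620 (log2 difference 1.79), and MTAP, which opens the pathway by splitting the by-product of polyamine synthesis, was at 281 and 241 CPM in SW480 and at 117 and 131 CPM in SW620 (-1.07). APIP, a dehydratase of the same pathway, was higher in SW620 (0.84).

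In the transsulfuration, cysteine and sulfide list 3 genes were lower and 4 higher in SW620. ETHE1, a mitochondrial sulfur dioxygenase, was lower (log2 difference -1.48), and GSS, glutathione synthetase, and TST, a sulfurtransferase, were higher (0.98 and 0.97). In the polyamine list 3 were lower and 7 higher. AGMAT, agmatinase, had 2 and 0 counts in the SW480 control and knockdown libraries and 183 and 324 in those of SW620. AZIN2, an antizyme inhibitor, was lower in SW620 (-2.42) at low counts, and PAOX, polyamine oxidase, had 24 and 23 counts in SW480 and 7 and 7 in SW620. Among the methyltransferases 2 were lower and 4 higher, with GAMT, which makes creatine, at -1.75 and PCMT1, a protein repair enzyme, at 1.03, and with HNMT at the counts given above. CBS and AGMAT were thus both near absence in SW480 and well detected in SW620.

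**Figure D5:**
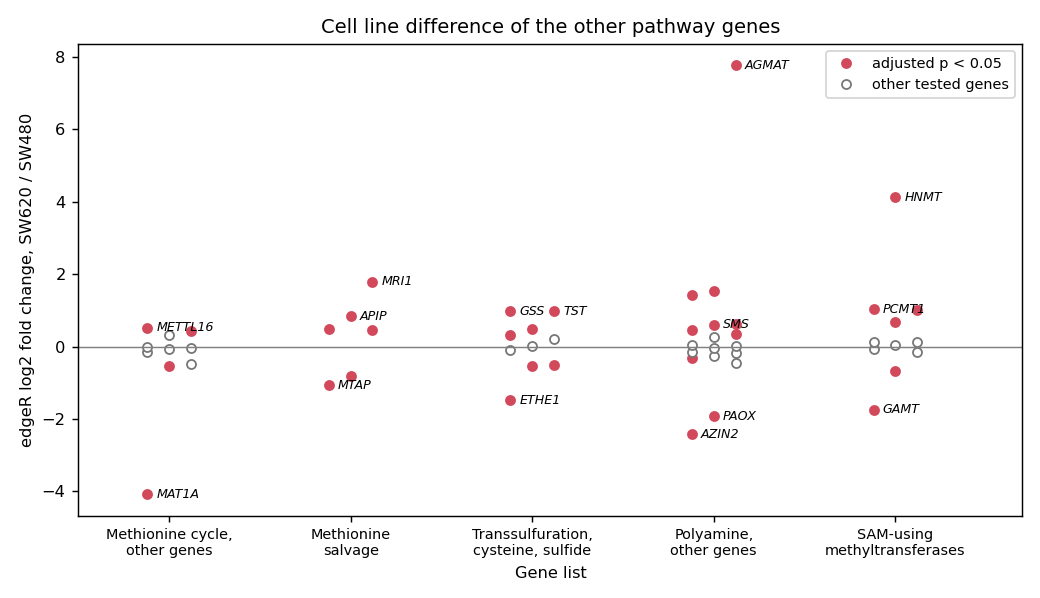
EdgeR log2 difference between SW620 and SW480 of the 55 tested genes of the 5 lists, 1 point per gene, filled red where the adjusted p was under 0.05 and open otherwise. AGMAT at 7.77 and HNMT at 4.12 stand above, and MAT1A at -4.08 and AZIN2 at -2.42 below, with most other genes between -1 and 1. MAT1A, PAOX, AGMAT and HNMT passed the count filter through 1 line only, so their position is a description.

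Some of these genes share sequence or position with others, which a count table by symbol cannot resolve. On GRCh38, GENCODE 29 lists 6 pseudogenes of AHCY (chr20:34280268-34311802, minus strand), 4 of AMD1 (chr6:110874770-110895713, plus strand) and 2 of SRM (chr1:11054584-11060024, minus strand). Exons of MAT2A (chr2:85539165-85545280, plus strand) overlap GGCX on the opposite strand, and those of MTRR (chr5:7851186-7906025, plus strand) overlap C5orf49 and FASTKD3. The use of strand in counting is not given in the sources used here, so reads of such partners cannot be told apart. Exons of AHCY overlap AL035458.2 on the same strand, where strand would not separate the reads. The other members are CBS (chr21:43053191-43076943, minus strand), CTH (chr1:70411218-70439851, plus strand), MTR (chr1:236795281-236903981, plus strand) and ODC1 (chr2:10439968-10448504, minus strand).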

How the data were processed

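RNA was sequenced in 4 libraries, from each of 2 colorectal cancer lines with and without SHMT2 knockdown, grouped by the sample labels. The values deposited by the authors are raw counts of reads by gene symbol in a single table, without normalization, with the sample titles as column names. Library totals ran from 5530129 to 13774288 counts. The submitters' processing notes name Bowtie 0.12.2 and hg18, and the labels name Illumina TruSeq RNA libraries, while the study's methods name an Agilent microarray. The counting program, annotation and use of strand are not given in the sources used here. In 28 rows, with 0.217% of the counts, the gene symbol had become a date, and these rows were kept.

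After TMM scaling, the quasi-likelihood test of edgeR 4.0.16 (R 4.3.3) was applied with terms for cell line and treatment. A gene was tested if 2 or more libraries held 10 or more of its counts. Tests were two-sided, and p-values were adjusted by the Benjamini-Hochberg method over all 14024 genes tested. The common dispersion was 0.00819. The model pairs the libraries by cell line. Over 14024 genes the deviations of a line's 2 libraries from the condition means had r = 0.961. With 2 lines this r says only that the line difference was alike in control and knockdown. It does not show that the cultures were paired. Ratios within a line carry exact conditional binomial 95% intervals, which cover counting error only. DESeq2 1.42.0 was the alternative test, and the other alternatives were size factors, total counts, upper quartile factors, no filter, a filter of 50 counts, thinning to the smallest total, a model without the block, and single lines or treatments.

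The members and lists were chosen with earlier results of these data known. Named genes were the 9 members, SHMT2, and from each list up to 2 genes with the smallest unadjusted p in the knockdown and up to 3 with the largest absolute log2 difference among those called between the lines. Positions came from GENCODE 29 and promoters from RefSeq, both on GRCh38, which is not the build of the notes, so they describe the reference only. The statistics were tested on counts simulated with the common dispersion of the fit and log2 changes of 1 in size. Of 194 changed genes 85.6% were recovered, and 5 unchanged genes were called. Smaller changes, such as those of the 9 members in the knockdown, were not simulated.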

Additional observations from a re-analysis of the deposited data

Results flagged for a closer look

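Of the 64 tested members and listed genes, 4 had knockdown effects of opposite direction in the lines, with counting intervals that left out 0 in both (6.25%, beside 3.73% of the 14024 genes tested). None of the 9 members was among them, and the differences were not tested. The SW620 effect minus the SW480 effect was -1.20 on the log2 scale for SAT1 (0.83 in SW480 and -0.37 in SW620). It was -0.50 for GSS (0.30 and -0.21), 0.39 for MTAP (-0.22 and 0.17) and 0.31 for EIF5A (-0.13 and 0.18), the translation factor that carries a modified spermidine residue.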

How the results depend on the processing

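With 1 library per line and treatment, p-values from edgeR rest on a dispersion shared across genes. Under the 8 alternatives 0 of the 9 members passed in the knockdown in either direction, with the lowest adjusted p of any fit at 0.464 (edgeR). CBS and CTH were given no adjusted p by the DESeq2 Wald test, so they could not pass it. Before adjustment 2 members passed at 0.05 with upper quartile factors and 0 with DESeq2. Without the replicate block, that is without the cell line term, 0 members and 0 of all genes were called lower and 0 higher in the knockdown (edgeR, with 0 members at an unadjusted p of 0.05 or less). For the line comparison the treatment term was left out instead. There 5 members, CBS among them, were higher and 1 lower in SW620, beside 4189 higher and 4118 lower of the 14024 genes. Over all genes, 164 were lower and 69 higher in the knockdown with the reported fit, 88 and 37 with total counts, 86 and 32 with upper quartile factors, 137 and 46 with no filter, 54 and 15 with the filter of 50 counts, 21 and 5 with DESeq2 and 23 and 3 after thinning. The 4394 lower and 4532 higher genes between the lines became 2826 and 2680 with DESeq2. Members lower in SW620 numbered 0 with DESeq2 and 0 after thinning, since CTH then missed the threshold (adjusted p = 0.264 and 0.0591), and 1 otherwise. Members higher in SW620 ranged from 5 to 7, CBS included. CBS was counted in every fit, but it passed the count filter through SW620 only, so its call carries no weight. ODC1 missed the threshold under all 8 alternatives (adjusted p = 0.0517 to 0.159) and SRM under 6 of them (0.0546 to 0.198), and the cause was not tested. Leaving out 1 line at a time turned the knockdown direction of 5 members, none of them called: MTRR (-0.36 in SW480, 0.11 in SW620), CTH (-0.58, 0.25), SRM (-0.07, 0.27), AHCY (-0.02, 0.08) and MAT2A (-0.06, 0.00). Differing directions were common among all genes tested, as given above.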
